A study of Homo sapiens with 4 samples.

Results

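Genes of the kinetochore, the mitotic spindle, the spindle checkpoint and the entry into and exit from mitosis were examined in SHMT2-knockdown and control colorectal cancer cells. The 53 genes were chosen by symbol, and all 53 were rows of the deposited table, which has 26364 rows of gene symbols. All 53 also reached 10 counts in 2 or more libraries, which was required for testing and which 14024 genes of the table met. RNA was sequenced from SW480 and SW620, human colorectal cancer cell lines established from the primary tumor and a lymph node metastasis of the same patient. Each line gave 2 libraries, 1 of SHMT2-knockdown cells and 1 of control cells, so that there were 4 in all. In the methods of the study, the knockdown cells stably carried an shRNA against SHMT2 that is switched on by doxycycline and was delivered by lentivirus, and the labels call the other libraries only control. The methods describe 1 hairpin and a fixed doxycycline incubation for such lines, while a legend speaks of more than 1 SHMT2 shRNA, and the text calls the controls control shRNA cells. Whether the sequenced libraries followed that hairpin and incubation, and whether the controls received doxycycline, are not given in the sources used here. No source says that the libraries came from separate cultures, so P values measure only the spread between these libraries. The test estimates that spread largely by sharing it across genes, since each gene leaves 1 residual degree of freedom. Standard errors within a line cover counting error only.

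Mitosis starts when CDK1 bound to cyclin B is activated by CDC25 phosphatases, with Polo-like and Aurora kinases at its side. Each chromosome is then compacted by condensin and topoisomerase II and builds a kinetochore on its centromere, from CENPA chromatin and the constitutive centromere-associated network (CCAN) inside to the NDC80 and SKA complexes that hold spindle microtubules outside. Kinetochores without microtubules keep the checkpoint proteins active, which block CDC20, an activator of the anaphase-promoting complex (APC/C), until every chromosome is attached and securin and cyclin B can be destroyed. The RNA of most of these genes is known to peak in G2 and mitosis, and its level in a tumor is often read as a measure of proliferation.

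SHMT2, the mitochondrial serine hydroxymethyltransferase that was targeted, was examined first. It had 277 CPM in control and 30.9 CPM in knockdown SW480 cells, and 688 CPM in control and 47.6 CPM in knockdown SW620 cells, where CPM is the normalized count on a per-million scale. It fell by 3.54 on the log2 scale (edgeR's adjusted p = 1.06e-167), in the direction of the labels. The size of this adjusted p depended on the fit. With edgeR it was 1.93e-08 with a filter of 50 counts and 7.01e-06 with thinning to the smallest total. The log2 fold changes in these fits were -3.54 and -3.48. The totals ran from 5530129 counts in control SW620 cells to 13774288 counts in knockdown SW620 cells, and the knockdown library was the shallower of the pair in SW480 and the deeper in SW620. The 11 markers of colon epithelium summed to 5565 to 10353 per-million counts in each library. Most of the sum in each library was KRT8, KRT18 and KRT19. CDX1 was at 0 in all 4 libraries, KRT20 had 1 to 15 counts, LGALS4 had 0 to 8 counts and CDH17 had 0 to 25 counts. VIL1 had 1 and 2 counts in the SW480 libraries against 2029 and 5105 counts in the SW620 libraries. Markers of other cell types were low, with sums of 21.0 to 29.7 per-million counts for 6 fibroblast genes, nearly all of it COL1A1 or LUM, 0.622 to 1.27 for 6 leukocyte genes and 0.723 to 2.49 for 4 endothelial genes.

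The mitotic genes were lower as a group in SHMT2-knockdown cells, by a small amount. They were chosen with earlier results of these data known. As genes of the same process they are not independent of each other, so their number does not count as separate evidence. All 53 had a fitted log2 fold change below 0, as did 48.3% of all genes tested, and their median was -0.27 (range -0.56 to -0.06) beside a median of 0.0075 over all genes tested. CDC20, UBE2C, CDK1 and NUF2 fell at an adjusted p under 0.05, which is 4 of 53 genes where 1.17% of all genes tested were lower at this limit. At the nominal limit, an unadjusted P of at most 0.05, 31 members were lower, beside 4.91% of all genes tested. With edgeR, 0 members were higher at either limit, beside 0.492% of all genes tested at the adjusted and 4.15% at the nominal limit, and DESeq2 gave 0 members as higher too. In bulk RNA, fewer cells in mitosis and less RNA per mitotic cell cannot be told apart.

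Lower values were present in both lines. The members that were lower in the knockdown cells of both lines numbered 49 (24.7% of all genes tested did so), and for 18 members both knockdown libraries lay below both control libraries (5.93% of all genes tested). SPC24, SKA1, SKA2 and TTK had opposite signs in the lines, as did 6392 of the 14024 genes tested. In both lines, 0 members were higher, beside 3792 of the 14024 genes tested. Within SW480 the median log2 fold change was -0.31 and within SW620 it was -0.25, beside 0.0050 and 0.0003 over all genes tested. The lower value was that of SW480 for 38 members, and for 7044 of the 14024 genes tested. Summed over the 53 genes, the share of all counts was 0.716% in control SW480 cells (Wilson 95% confidence interval 0.711% to 0.721%) and 0.596% in knockdown SW480 cells (0.590% to 0.602%). In SW620 cells it was 0.902% in the control (0.894% to 0.910%) and 0.751% in the knockdown (0.746% to 0.755%). The summed share in knockdown cells was 83.2% of that in control cells in either line, and these intervals cover counting error only. These shares are of raw library totals, without the scaling used for CPM. The scaling factors of control and knockdown were 1.003 and 1.032 in SW480 and 0.988 and 0.978 in SW620. The equal percentage in the lines therefore holds for unscaled totals only. When the cell line term was dropped, 0 members passed at either limit, but 0 of all 14024 genes passed after adjustment in that fit, SHMT2 (-3.62) included, and 17 were lower at the nominal limit. DESeq2 gave 14 members as lower at the nominal limit, beside 178 of all 14024 genes. It gave an adjusted p for 39 of the 53 members, of which 0 passed. Of all genes, 21 were lower after adjustment with DESeq2. CDC20 and UBE2C also passed when the filter on low counts was dropped and with the size factors of DESeq2, while CDK1 passed in none of the 6 other fits and NUF2 in none of the 5 that gave it an adjusted p, since DESeq2 gave it none.

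**Figure D1:**
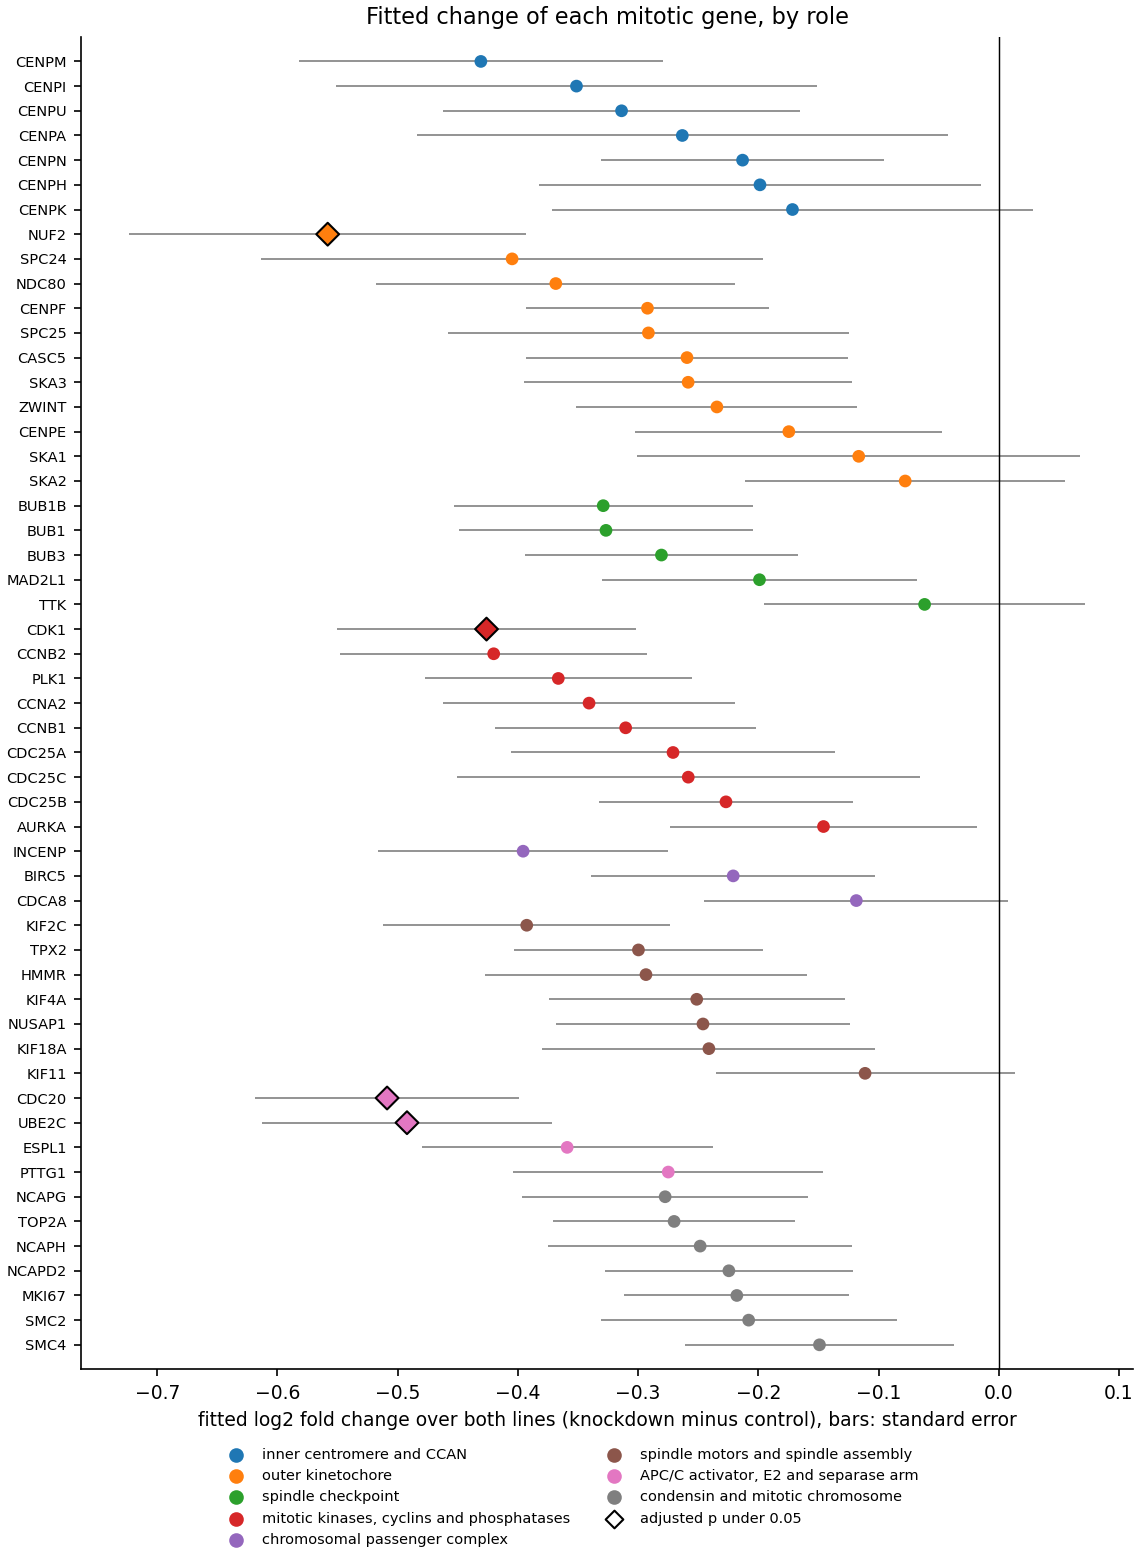
Fitted log2 fold change of each of the 53 genes over both cell lines, knockdown minus control, on the x axis, with genes on the y axis grouped and colored by role, bars showing the standard error of the fit and diamonds marking an adjusted p under 0.05. All 53 points lie left of 0, from NUF2 at -0.56 to TTK at -0.06, and the 4 diamonds are NUF2, CDK1, CDC20 and UBE2C.

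Promoters of the members were read as a description of the genes in the list. Mitotic promoters are known for the cell cycle genes homology region (CHR), to which MuvB complexes bind, and for CCAAT boxes, to which NF-Y binds, while E2F sites are known from genes of the G1/S transition. RefSeq windows on GRCh38.p14, from 250 bases before to 50 bases after an annotated transcription start, matched 44 of the 53 members with 55 windows. The members not matched were CENPM, CENPH, CASC5, BUB3, TTK, AURKA, BIRC5, TPX2 and UBE2C. The CHR was searched as TTTGAA or its reverse TTCAAA, the CCAAT box as CCAAT or ATTGG and an E2F-like site as GCGGGAA or TTCCCGC, and no motif contains another. The stretches from 200 bases before to 30 bases after the start are printed here for the called members with a window (CDC20, CDK1, NUF2), for PLK1 and CCNB2, which had the next smallest P among members, and for SKA2, whose fitted change was near 0. They lie on the + strand at chr1:43358781-43359010 (CDC20), chr10:60778278-60778507 (CDK1, the second of its windows), chr1:163321754-163321983 (NUF2), chr16:23678689-23678918 (PLK1) and chr15:59104946-59105175 (CCNB2), and on the - strand at chr17:59155157-59155386 (SKA2). Capitals mark matches of the CHR and of the CCAAT box on either strand, and each sequence reads 5′ to 3′ on the strand of its gene.
CDC20: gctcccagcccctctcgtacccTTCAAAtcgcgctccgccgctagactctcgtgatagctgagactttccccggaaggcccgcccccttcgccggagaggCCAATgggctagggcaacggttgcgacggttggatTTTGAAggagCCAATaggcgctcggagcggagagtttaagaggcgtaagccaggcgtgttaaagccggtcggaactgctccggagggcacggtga
CDK1: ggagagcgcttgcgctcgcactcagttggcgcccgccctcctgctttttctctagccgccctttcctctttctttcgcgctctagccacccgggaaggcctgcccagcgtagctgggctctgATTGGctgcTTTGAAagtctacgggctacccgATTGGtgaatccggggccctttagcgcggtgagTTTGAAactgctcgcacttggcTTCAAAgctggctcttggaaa
NUF2: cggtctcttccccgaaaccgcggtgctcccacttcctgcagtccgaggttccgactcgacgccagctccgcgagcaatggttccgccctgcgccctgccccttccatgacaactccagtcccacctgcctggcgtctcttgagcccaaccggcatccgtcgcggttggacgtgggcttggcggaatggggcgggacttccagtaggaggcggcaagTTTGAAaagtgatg
PLK1: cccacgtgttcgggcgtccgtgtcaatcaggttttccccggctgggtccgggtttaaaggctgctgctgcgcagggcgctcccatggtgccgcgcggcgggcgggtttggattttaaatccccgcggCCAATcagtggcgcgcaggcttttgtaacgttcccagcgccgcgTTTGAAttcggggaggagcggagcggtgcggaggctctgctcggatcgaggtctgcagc
CCNB2: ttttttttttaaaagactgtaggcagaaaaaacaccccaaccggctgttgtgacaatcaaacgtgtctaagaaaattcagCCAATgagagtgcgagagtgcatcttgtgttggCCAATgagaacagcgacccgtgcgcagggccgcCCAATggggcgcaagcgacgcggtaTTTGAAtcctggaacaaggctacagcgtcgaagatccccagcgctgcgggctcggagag
SKA2: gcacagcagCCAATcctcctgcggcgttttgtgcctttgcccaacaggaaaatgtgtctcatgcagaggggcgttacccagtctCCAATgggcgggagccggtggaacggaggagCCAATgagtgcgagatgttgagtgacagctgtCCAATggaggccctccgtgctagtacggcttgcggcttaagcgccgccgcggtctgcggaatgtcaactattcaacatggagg

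In the printed stretch of CCNB2, CCAAT boxes began 120, 87 and 54 bases before the start and a CHR followed 29 bases before it. PLK1 had a CCAAT box 73 bases and a CHR 29 bases before the start. CDC20 had CCAAT boxes 100 and 55 bases before the start and CHR matches 178 and 65 bases before it. CDK1 had CCAAT boxes on the other strand 78 and 46 bases before the start, and CHR matches 69 and 13 bases before and 10 bases after it. The window of NUF2 held a CHR 17 bases after the start and no CCAAT box, and that of SKA2 held CCAAT boxes and no CHR. Over the members, 30 of 44 genes had a CHR (68.2%), beside 18.2% of 27305 genes in the reference table and 13.4% of the 10315 genes that were both tested and in the table. A CHR within 50 bases of the start was found for 59.1% of the members, beside 4.20% of those tested genes. CCAAT boxes were found for 33 members (75%, beside 42.8% of tested genes), a CHR and a CCAAT box in the same window for 22 (50%, beside 5.51%), and an E2F-like match for 7 (15.9%, beside 12.6%). The 30 members with a CHR had a median log2 fold change of -0.26 and the 14 members without one had -0.29. A match is a description of these letters and not a binding site or a cause. Since mitotic promoters are known for the CHR, its higher share among genes listed as mitotic follows from the list. It says nothing about the knockdown.

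**Figure D2:**
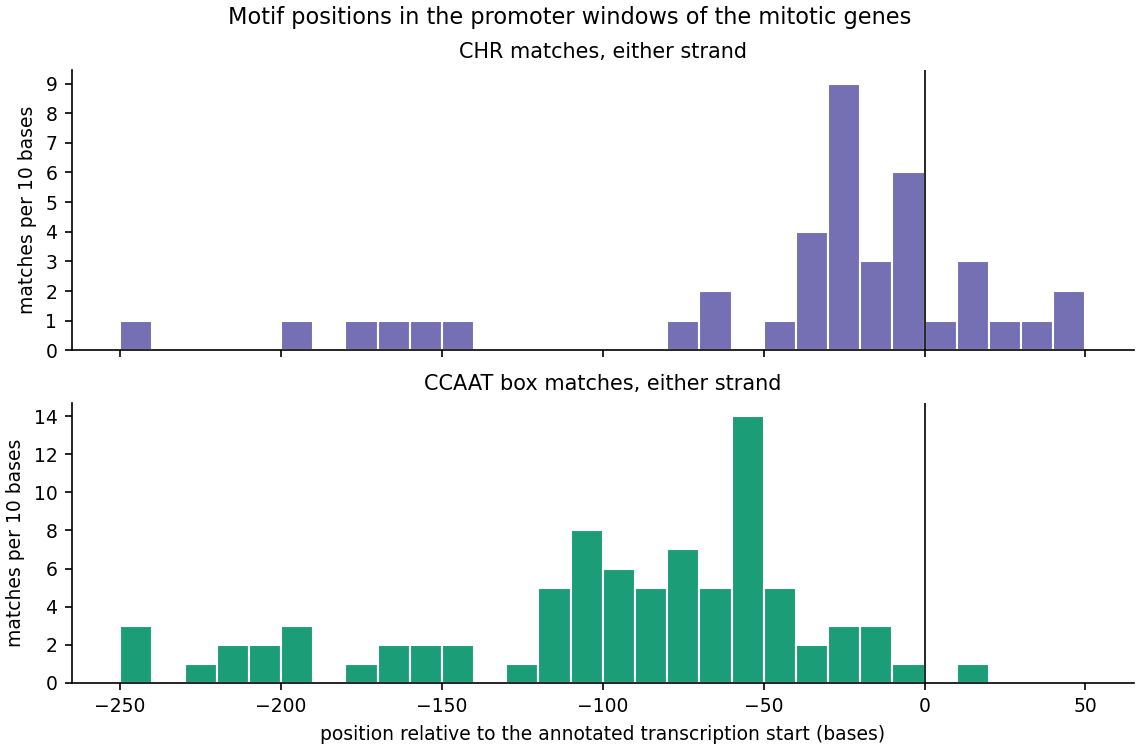
Number of motif matches per 10 bases (y axis) against their distance from the annotated transcription start in bases (x axis, 0 is the start), over the 55 promoter windows of 44 members, for the CHR above and the CCAAT box below. The 40 CHR matches have a median position of -25.5 and are densest from -30 to -21, and the 84 CCAAT matches have a median of -85 and are densest from -60 to -51.

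Kinases, cyclins and phosphatases of mitotic entry were examined next, with 9 members and a median log2 fold change of -0.31. All 9 were lower in both lines (24.7% of all genes tested), 7 were lower at the nominal limit (4.91%), and CDK1 passed after adjustment (1.17%). These shares of all genes tested also stand beside the counts given for the other roles. CDK1, the kinase that drives cells into mitosis (chr10:60778331-60794852 in GENCODE 29 on GRCh38, as are all gene positions given here), had 93.2 CPM in control and 69.1 CPM in knockdown SW480 cells, and 145 and 108 CPM in SW620 cells. The level was lower in the knockdown of each line, and the knockdown SW620 cells still had more than the control SW480 cells. CDK1 fell by 0.43 on the log2 scale (standard error 0.12, edgeR's adjusted p = 0.0409), and its values of -0.43 (SW480) and -0.42 (SW620) differed by less than their counting error. CCNB2, a cyclin B, and PLK1, the Polo-like kinase, had the next values with log2 fold changes of -0.42 and -0.37 (edgeR's adjusted p = 0.0565 and 0.0550). PLK1 overlaps ERN2 on the opposite strand, and their reads cannot be told apart if strand was not used in counting. CCNB1, the other B-type cyclin, was at -0.31 and CCNA2, cyclin A, which overlaps EXOSC9 on the opposite strand, at -0.34. The phosphatases CDC25A, CDC25B and CDC25C, which activate CDK1 and its relatives, lay between -0.27 and -0.23, and AURKA, the Aurora kinase of the spindle poles, was at -0.15 (unadjusted P = 0.252, edgeR).

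Condensin and other proteins of the mitotic chromosome were next, with 7 members, a median of -0.22 and 5 members lower at the nominal limit. After adjustment 0 of the 7 passed with edgeR, nor did any that had an adjusted p from DESeq2. TOP2A, the topoisomerase that untangles sister chromatids (chr17:40388516-40417950), had 283 CPM in control and 242 CPM in knockdown SW480 cells, and 800 and 644 CPM in SW620 cells. It was lower in the knockdown of each line, and both SW620 libraries lay far above both SW480 libraries. Its log2 fold change was -0.27 (standard error 0.10, edgeR's unadjusted P = 0.00747, adjusted p = 0.210). MKI67, which encodes the proliferation marker Ki-67 and coats mitotic chromosomes, was the most abundant of the 53 genes by count, with 1024 and 858 CPM in control and knockdown SW480 cells and 966 and 852 CPM in SW620 cells. Both knockdown libraries lay below both controls, with a log2 fold change of -0.22 (edgeR's unadjusted P = 0.0198, adjusted p = 0.347). The 5 genes of condensin I, which compacts the chromatids, ran from NCAPG at -0.28 to SMC4 at -0.15. Per kilobase of exon, NCAPD2 had the highest level of the condensin I genes in each library, at 59.4 to 85.9 CPM per kilobase, and SMC2 had the lowest in SW480, at 8.80 to 10.6 CPM per kilobase. On the opposite strand NCAPD2 overlaps MRPL51, and SMC4 overlaps IFT80 and TRIM59. If strand was not used in counting, these levels may include reads of those genes.

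The inner centromere and the CCAN had 7 members with a median of -0.26, and all 7 were lower in both lines. At the nominal limit, CENPM and CENPU were lower, and after adjustment 0 of the 7 passed with edgeR. CENPM, a CCAN subunit (chr22:41938721-41947164), had the smallest P of the 7. It had 31.4 CPM in control and 21.3 CPM in knockdown SW480 cells, and 48.0 and 38.4 CPM in SW620 cells. The level was lower in the knockdown of each line, while the SW620 values all lay above the SW480 values. The log2 fold change of CENPM was -0.43 (standard error 0.15, edgeR's unadjusted P = 0.00442, adjusted p = 0.149). CENPA, the histone H3 variant that marks the centromere, had 69 to 202 counts per library and a log2 fold change of -0.26 with a standard error of 0.22. The other CCAN genes ran from CENPI at -0.35 and CENPU at -0.31 to CENPH at -0.20 and CENPK at -0.17.

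The outer kinetochore, which contacts microtubules, had 11 members with a median of -0.26. It held the lowest fitted value of the 53 genes and also 3 of the 4 members with opposite signs in the lines. NUF2, a subunit of the NDC80 complex (chr1:163266576-163355764), had 29.2 CPM in control and 18.9 CPM in knockdown SW480 cells, and 36.3 and 25.7 CPM in SW620 cells. The knockdown libraries both lay below both control libraries. NUF2 fell by 0.56 on the log2 scale (standard error 0.17, edgeR's adjusted p = 0.0458), with -0.62 in SW480 and -0.49 in SW620. Its partner NDC80 had a log2 fold change of -0.37 (edgeR's unadjusted P = 0.0135, adjusted p = 0.291), and for it too both knockdown libraries lay below both controls.

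SPC24 and SPC25 form the end of the NDC80 complex that faces the CCAN. SPC24, whose knockdown effect had opposite signs in the lines, had 15.3 CPM in control and 7.54 CPM in knockdown SW480 cells, and 20.7 and 21.3 CPM in SW620 cells. The knockdown value was at 49.3% of control in SW480 and at 103% of control in SW620. These levels rest on 147 and 50 counts in SW480 and on 113 and 287 counts in SW620. The log2 fold change in SW480 minus that in SW620 was -1.04 with a counting standard error of 0.29. Within SW620 the log2 fold change of SPC24 was 0.04, smaller than its counting standard error of 0.16. Per kilobase of exon, SPC24 had the lowest level of the 4 NDC80 complex genes in every library, at 3.26 to 9.22 CPM per kilobase, and SPC25 ran from 17.6 to 23.2 CPM per kilobase.

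The SKA complex, which keeps kinetochores on shrinking microtubules, held the other members of the outer kinetochore with opposite signs in the lines. SKA1 (chr18:50374995-50394173) had 31.8 CPM in control and 22.3 CPM in knockdown SW480 cells, and 14.1 and 18.1 CPM in SW620 cells. It was lower after knockdown in SW480 and higher after knockdown in SW620, with log2 fold changes of -0.50 (counting standard error 0.14) and 0.36 (0.19). SKA2 (chr17:59109951-59155269) had 64.8 CPM in control and 53.8 CPM in knockdown SW480 cells, and 58.9 and 63.5 CPM in SW620 cells. Its log2 fold changes were -0.27 in SW480 (0.10) and 0.11 in SW620 (0.09), so that the value in SW620 was about as large as its counting error. SKA3, the remaining subunit, was lower in both lines, at -0.37 and -0.14. With 1 library per line and condition, a difference of the knockdown effect between the lines has no test. That difference was over 2 counting standard errors for 15 members, and for 3186 of the 14024 genes tested. Among the 15, CENPF, CDC25B and KIF4A had the lower value in SW620, and CENPN, SPC24, SKA1, SKA2, BUB1, PLK1, CCNA2, CDC25A, TPX2, CDC20, MKI67 and SMC4 had it in SW480. Of the remaining members of the outer kinetochore, CENPF was at -0.29, CASC5 (KNL1) at -0.26 and ZWINT at -0.23, while CENPE, a kinesin of the kinetochore, was at -0.17.

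**Figure D3:**
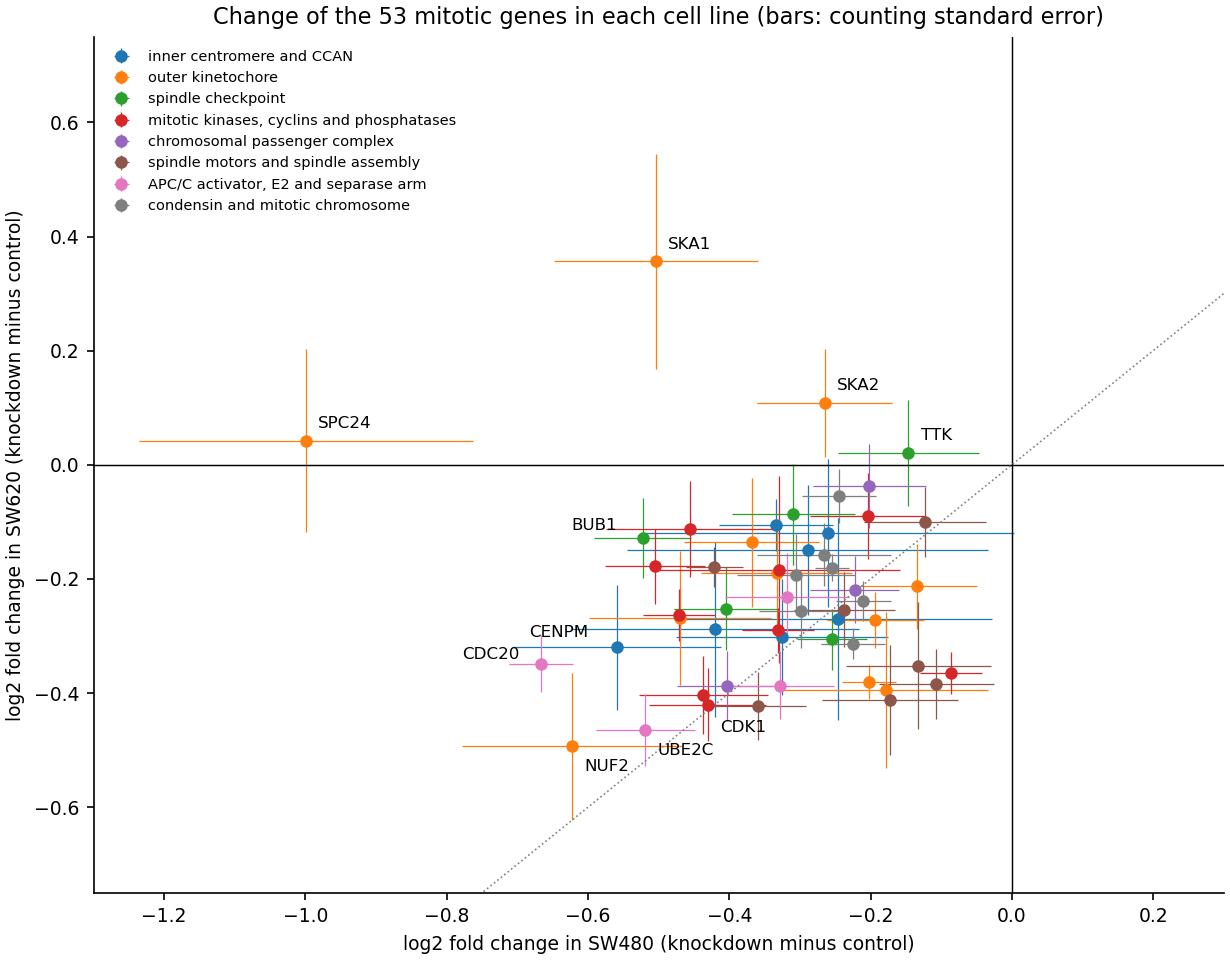
Log2 fold change, knockdown minus control, of the 53 genes in SW480 (x axis) and in SW620 (y axis), colored by role, with bars for the counting standard error, solid lines at 0 and a dotted line where both lines are equal. In total 49 points lie below 0 on both axes, and SPC24, SKA1, SKA2 and TTK lie left of 0 in SW480 and above 0 in SW620.

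Proteins of the spindle checkpoint had 5 members with a median of -0.28, and BUB1, BUB1B and BUB3 were lower at the nominal limit. After adjustment 0 of the 5 passed with edgeR. BUB1, a checkpoint kinase (chr2:110637698-110678114), had 142 CPM in control and 98.5 CPM in knockdown SW480 cells, and 111 and 101 CPM in SW620 cells. Both knockdown libraries lay below both controls, and the knockdown libraries of the lines were close to each other. The log2 fold change was -0.33 (standard error 0.12, edgeR's unadjusted P = 0.00763, adjusted p = 0.212), with -0.52 in SW480 and -0.13 in SW620. MAD2L1, which inhibits CDC20, was at -0.20, also with both knockdown libraries below both controls. TTK, the kinase MPS1 that starts checkpoint signalling, was the member nearest to 0 at -0.06. It was at -0.15 in SW480 and 0.02 in SW620, with counting standard errors of 0.10 and 0.09.

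The chromosomal passenger complex corrects faulty attachments, and its 3 members were all lower in both lines. INCENP, its scaffold (chr11:62123973-62153163), had 124 CPM in control and 94.0 CPM in knockdown SW480 cells, and 154 and 118 CPM in SW620 cells. In each knockdown library the level was below that of either control, and the log2 fold changes were -0.40 (SW480) and -0.39 (SW620). The fitted log2 fold change of INCENP was -0.40 (standard error 0.12, edgeR's unadjusted P = 0.00105, adjusted p = 0.0582). BIRC5 (survivin) was at -0.22 and CDCA8 (borealin) at -0.12, and neither passed the nominal limit.

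Spindle motors and assembly factors had 7 members with a median of -0.25. All 7 were lower in both lines, 5 were lower at the nominal limit, and after adjustment 0 passed with edgeR. KIF2C, the kinesin MCAK that takes microtubules apart (chr1:44739818-44767767), had 132 CPM in control and 103 CPM in knockdown SW480 cells, and 166 and 124 CPM in SW620 cells. Both knockdown libraries lay below both controls, at 77.9% and 74.6% of control. The fitted value was -0.39 (standard error 0.12, edgeR's unadjusted P = 0.00101, adjusted p = 0.0573), and KIF2C overlaps AL592166.1 on the opposite strand. In this role the lower median was that of SW620, at -0.35 beside -0.17 in SW480, and 5 of the 7 genes had their lower value in SW620. TPX2, which activates AURKA on the spindle, was at -0.30, and KIF11, the kinesin that pushes spindle poles apart, at -0.11. HMMR, which binds microtubules at spindle poles, was at -0.29, NUSAP1 at -0.25 and KIF18A, a kinesin of chromosome alignment, at -0.24. KIF4A, the chromokinesin, was at -0.25, and its near-identical copy KIF4B had 0 to 4 counts per library.

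The APC/C arm that ends mitosis showed the lowest median of the 8 roles, at -0.43, and all 4 of its members were lower in both lines and at the nominal limit. CDC20, which activates the APC/C (chr1:43358955-43363203), had 356 CPM in control and 224 CPM in knockdown SW480 cells, and 236 and 185 CPM in SW620 cells. The groups did not overlap, as both knockdown libraries lay below both controls. CDC20 fell by 0.51 on the log2 scale (standard error 0.11, edgeR's adjusted p = 0.000813). Knockdown SW480 cells kept 63.0% of the control level and knockdown SW620 cells 78.5%, and the log2 fold change in SW480 minus that in SW620 was -0.32 with a counting standard error of 0.07.

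UBE2C, the E2 enzyme that starts ubiquitin chains on APC/C targets (chr20:45812576-45816957), had 137 CPM in control and 95.6 CPM in knockdown SW480 cells, and 150 and 109 CPM in SW620 cells. Both knockdown libraries lay below both controls, at 69.7% and 72.4% of control. UBE2C fell by 0.49 on the log2 scale (standard error 0.12, edgeR's adjusted p = 0.00537). GENCODE names 4 pseudogenes of UBE2C and 1 of CDC20, so that reads of near-identical copies may be split or added. ESPL1 (separase), which cuts cohesin at anaphase, was at -0.36 (edgeR's unadjusted P = 0.00302, adjusted p = 0.119) and its inhibitor PTTG1 (securin) at -0.27 (unadjusted P = 0.0331, adjusted p = 0.464). The copies of PTTG1 had few reads, with 0 to 2 counts per library for PTTG2 and 0 for PTTG3P.

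**Figure D4:**
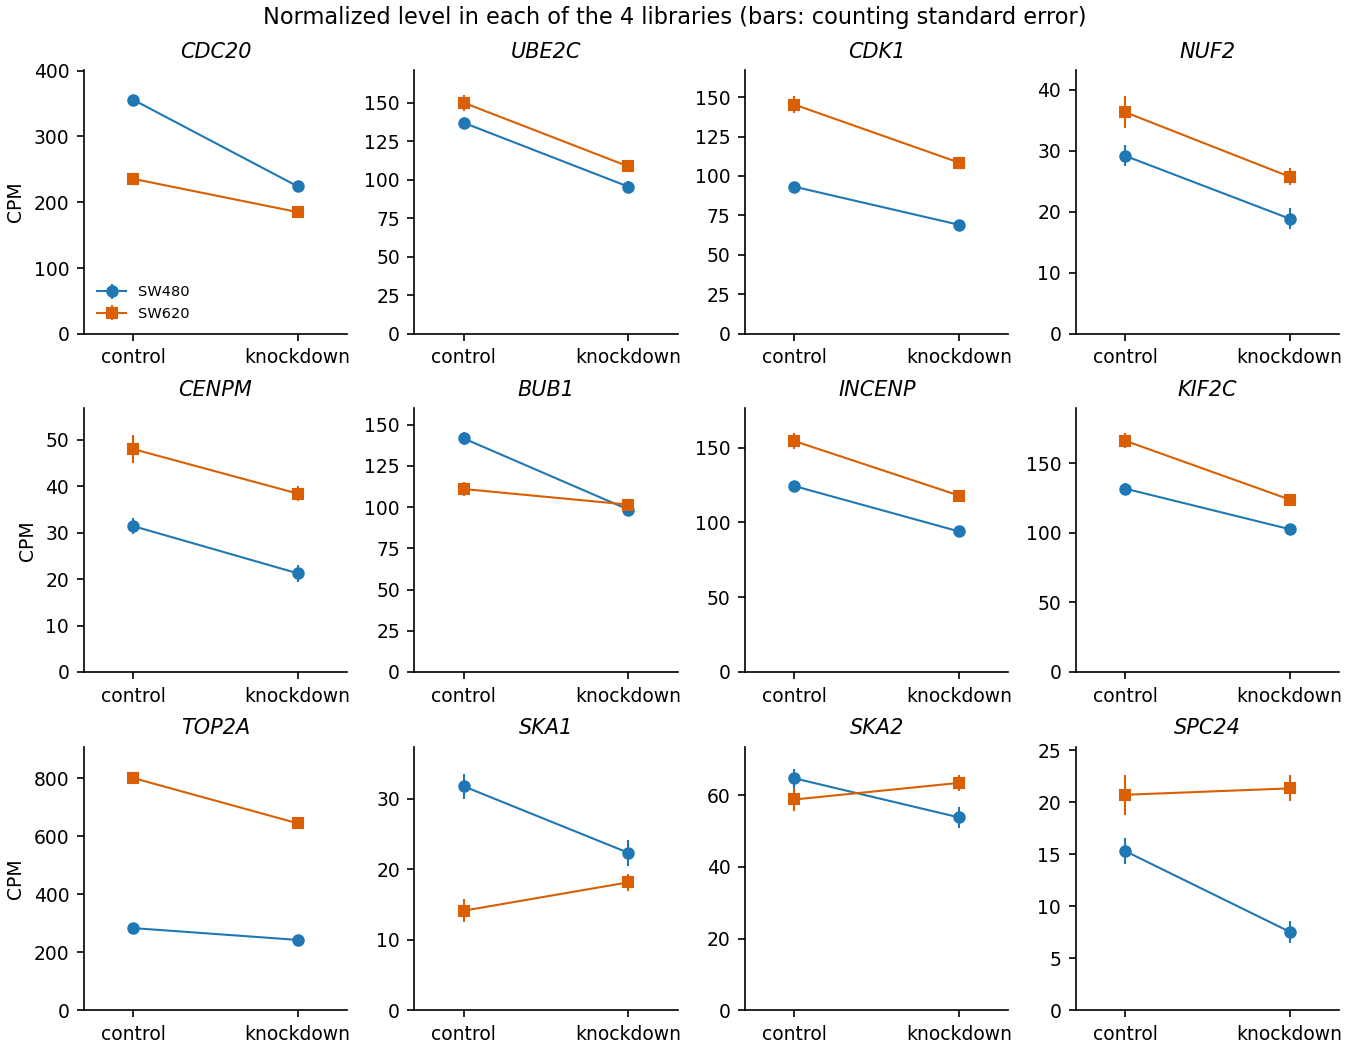
Normalized level in CPM (y axis, from 0) in control and knockdown cells (x axis) of SW480 (circles) and SW620 (squares) for 12 members, 1 library per point, with bars for the counting standard error. CDC20, UBE2C, CDK1 and NUF2 in the top row are lower in the knockdown of both lines, and in the bottom row the lines of SKA1 and SKA2 slope down in SW480 and up in SW620.

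The cell lines themselves were compared in the same model, with the treatment as the other term. Of the 53 members, 31 were higher in SW620 than in SW480 at an adjusted p under 0.05 (32.3% of all genes tested), 5 were lower (31.3% of all genes tested), and the median difference was 0.31 on the log2 scale beside 0.010 over all genes tested. All 7 members of the inner centromere and CCAN were higher in SW620, with a median of 1.03, while of the 5 checkpoint genes 0 were higher and BUB3 was lower with edgeR. At the nominal limit, these checkpoint counts were the same.

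CENPH, a CCAN subunit (chr5:69189548-69210357), had 9.27 CPM in control and 7.54 CPM in knockdown SW480 cells, and 42.7 and 38.5 CPM in SW620 cells. Its SW620 libraries lay above its SW480 libraries by 2.27 on the log2 scale (standard error 0.19, edgeR's adjusted p = 8.07e-32). CENPK, of the same network (chr5:65517766-65563171), had 8.54 and 7.09 CPM in control and knockdown SW480 cells and 32.6 and 30.03 CPM in SW620 cells, a difference of 2.002 (standard error 0.20, edgeR's adjusted p = 1.64e-21). In SW480 the levels rest on 89 and 50 counts for CENPH and on 82 and 47 counts for CENPK, in control and knockdown cells. Both genes lie on chromosome 5. The 11 tested genes whose positions lie within 1000000 bases of CENPH differed between the lines by -0.80 to 1.16, with a median of 0.58, and the 10 such genes around CENPK by -0.70 to 1.78, with a median of 0.51. CENPH and CENPK thus lay above every tested neighbour in this window.

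CENPN, which binds CENPA nucleosomes (chr16:81006498-81033114), had 94.7 and 75.1 CPM in control and knockdown SW480 cells and 269 and 250 CPM in SW620 cells. It was higher in SW620 by 1.62 (standard error 0.12, edgeR's adjusted p = 4.10e-40), and it overlaps CMC2 on the opposite strand. SMC2, the condensin ATPase (chr9:104094260-104141417), had 66.4 and 55.2 CPM in SW480 and 184 and 165 CPM in SW620, a difference of 1.53 (standard error 0.13, edgeR's adjusted p = 5.78e-33). For TOP2A, whose levels were given with the condensin genes, the difference was 1.46 (standard error 0.10, edgeR's adjusted p = 5.10e-44). In these 3 genes, as in CENPH and CENPK, both SW620 libraries lay above both SW480 libraries. Unlike CENPH and CENPK, each of these 3 had a tested neighbour in the same window with a larger difference. The highest neighbour was at 9.62 for CENPN, 1.58 for SMC2 and 10.3 for TOP2A. The medians of their neighbours were 0.015, 0.72 and -0.19.

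The 5 members that were lower in SW620 were SKA1, SKA3, CDC20, NCAPG and BUB3. SKA1 was lower by 0.70 on the log2 scale (standard error 0.18, edgeR's adjusted p = 0.000327), by 1.16 in control and by 0.30 in knockdown cells. SKA3 (chr13:21153595-21176602) had 68.4 and 52.9 CPM in control and knockdown SW480 cells and 42.9 and 39.0 CPM in SW620 cells, a difference of -0.55 (standard error 0.14, edgeR's adjusted p = 0.000124). For these SKA genes both SW620 libraries lay below both SW480 libraries. CDC20 differed by -0.44 (standard error 0.11, edgeR's adjusted p = 0.000178), and its control SW620 library lay above its knockdown SW480 library. NCAPG, a condensin I subunit (chr4:17810902-17844862), had 169 and 137 CPM in SW480 and 134 and 112 CPM in SW620, a difference of -0.31 (standard error 0.12, edgeR's adjusted p = 0.0158). Its SW620 libraries both lay below its SW480 libraries, and it overlaps LCORL on the opposite strand. BUB3, a checkpoint scaffold (chr10:123154277-123170467), had 238 and 199 CPM in SW480 and 204 and 165 CPM in SW620, a difference of -0.24 (standard error 0.11, edgeR's adjusted p = 0.0493). Here the control SW620 library lay above the knockdown SW480 library. Of these 5 calls, that of SKA3 was made in each of the 6 other fits. Without the treatment term the adjusted p was 0.158 for BUB3, 0.0752 for NCAPG and 0.0630 for CDC20. With DESeq2 it was 0.106 for BUB3, 0.0731 for NCAPG and 0.143 for SKA1, with thinning to the smallest total 0.0507 for BUB3 and 0.0612 for SKA1, and with no filter on low counts 0.0511 for BUB3.

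**Figure D5:**
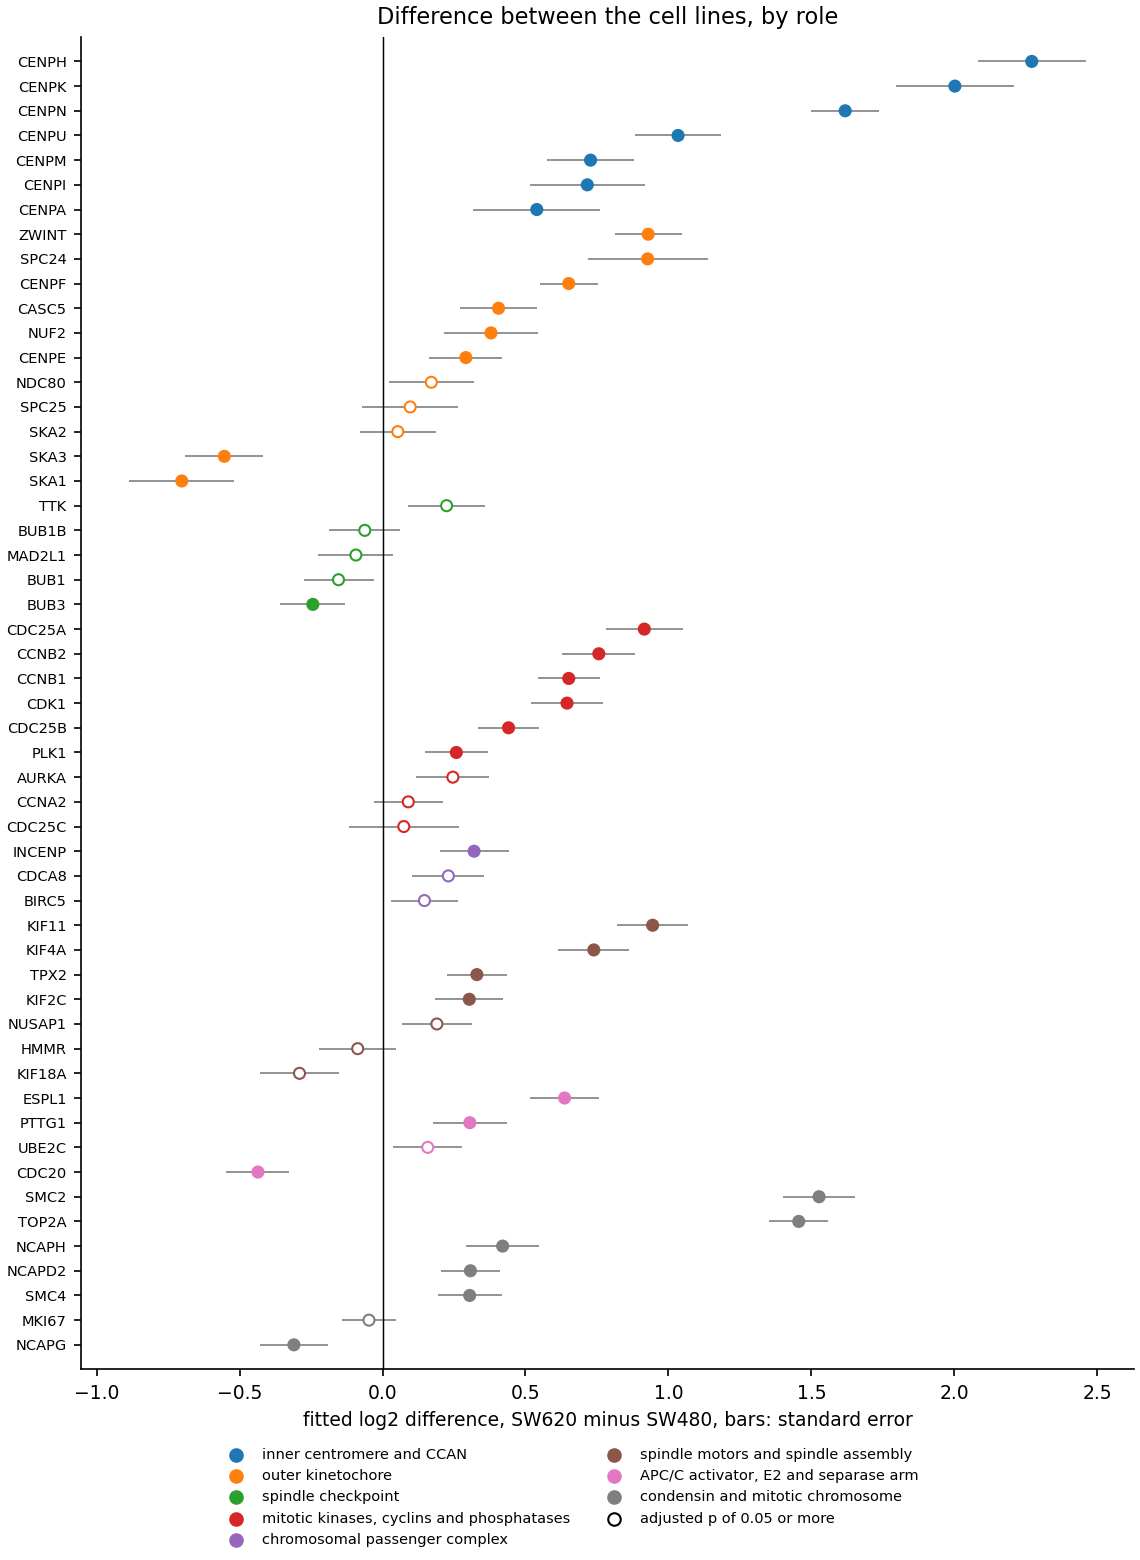
Fitted log2 difference between the cell lines, SW620 minus SW480, of each member (x axis), with genes on the y axis grouped and colored by role, bars for the standard error and open circles for an adjusted p of 0.05 or more. The 7 CCAN genes all lie right of 0, from CENPA at 0.54 to CENPH at 2.27, and SKA1 at -0.70 lies farthest left.

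Other genes of mitosis were listed beside the members, 107 in all, of which 106 were tested. At an adjusted p under 0.05, 6 of them were lower in SHMT2-knockdown cells (1.17% of all genes tested), and with edgeR 0 were higher at the adjusted or the nominal limit, as with DESeq2. At the nominal limit 27 were lower (4.91% of all genes tested), 68 were lower in both lines (24.7% of all genes tested), and the median log2 fold change was -0.14, beside -0.27 for the members. The 6 were PBK, a mitotic kinase (-0.57), CDCA5 (sororin), which protects cohesin (-0.52), KIF18B, a kinesin (-0.49), UBE2S, the E2 enzyme that lengthens ubiquitin chains for the APC/C (-0.48), CDCA3 (-0.47) and MELK, a kinase (-0.45). Their adjusted p values from edgeR's quasi-likelihood test were 0.00537 for PBK, 0.00468 for CDCA5, 0.0175 for KIF18B, 0.00302 for UBE2S, 0.0458 for CDCA3 and 0.0353 for MELK. Of these 6 calls, 0 were made with a filter of 50 counts, with thinning, with DESeq2 (which gave PBK and CDCA3 no adjusted p) or without the cell line term, while 5 were made with the size factors of DESeq2 (not CDCA3) and 4 with no filter (neither CDCA3 nor MELK).

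Of 28 other spindle genes, 12 were lower at the nominal limit and the median was -0.21. Of 17 core subunits and regulators of the APC/C, 1 was lower at this limit (UBE2S; 4.91% of all genes tested), 6 were lower in both lines (24.7% of all genes tested) and the median was -0.06. Of 29 other centromere and kinetochore genes 7 were lower at this limit, with a median of -0.15. Of 16 genes of cohesin and condensin II 3 were lower, with a median of -0.09, and of 16 other genes of mitotic entry 4 were lower, with a median of -0.19.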

How the data were processed

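RNA of the 4 libraries was made into Illumina TruSeq libraries per the labels. The authors deposited these as raw counts, in 26364 rows of gene symbols, not normalized. The submitters' processing notes name Bowtie 0.12.2 and hg18 without a role. Counter, annotation and strand use are not given in the sources used here, and the study's text names both sequencing and an Agilent array for this experiment. In 28 rows gene symbols had become dates, and these rows were kept.

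The 14024 genes that reached 10 counts in 2 or more libraries were tested. After TMM scaling, edgeR 4.0.16 (R 4.3.3) was run with its two-sided quasi-likelihood test and terms for cell line and treatment, and p values were adjusted by Benjamini-Hochberg over all genes tested. This left 1 residual degree of freedom, with a common dispersion of 0.00819. The study's methods name no model for these data. The cell line pairs the libraries, and the deviations of paired libraries from their group means had a correlation of 0.961 across genes, which are not independent replicates. A prior count of 2 was used for values within a line. The scripts were tested on simulated data, and DESeq2 1.42.0 was the alternative tool.

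The members and lists were chosen with earlier results of these data known. Values in every library are given for SHMT2, for members with an adjusted p under 0.05, for members whose signs differ between lines with both values at least 0.1 in size, for the member of smallest P in each of 8 roles, and for the 5 members with the largest line difference in each direction. Of the other mitotic genes, those with an adjusted p under 0.05 are named. SPC24, TTK, MKI67 and the other members named beside these were chosen after their values were seen. Positions, exon lengths and overlaps came from GENCODE 29 on GRCh38, where all 53 symbols matched (CASC5 as KNL1), and promoters from RefSeq on GRCh38.p14. Neither need be the authors' annotation. Alternatives were a fit without the cell line (or treatment) term, no filter, a filter of 50 counts, size factors from DESeq2, its Wald test, thinning to 5530129 counts and leaving out each line.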

Additional observations from a re-analysis of the deposited data

Results flagged for a closer look

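SPC24, SKA1, SKA2 and TTK had knockdown effects of opposite sign in the cell lines, as did 6392 of the 14024 genes tested. These members were lower in SW480. In SW620 their log2 fold changes were 0.04 for SPC24, 0.36 for SKA1, 0.11 for SKA2 and 0.02 for TTK. The counting standard errors in SW620 were 0.16, 0.19, 0.09 and 0.09, so the values of SPC24 and TTK were smaller than their counting error. The log2 fold change in SW480 minus that in SW620 was -1.04 for SPC24, -0.86 for SKA1, -0.37 for SKA2 and -0.17 for TTK. Its counting standard errors were 0.29, 0.24, 0.13 and 0.14. These differences were not tested, since each line had 1 library per condition. The lowest count was 77 for SKA1, in control SW620 cells, and 50 for SPC24, in knockdown SW480 cells, and the part of depth in these values was not tested.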

How the results depend on the processing

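All 53 members had a fitted log2 fold change below 0 under each of the 6 other fits, with medians from -0.28 to -0.26, and without replicate 1 (SW620) or replicate 2 (SW480) the median was -0.31 or -0.25. The number called depended on the fit. Without the replicate block, that is without the cell line as the term that pairs the libraries, 0 members and 0 other mitotic genes were lower at the adjusted or the nominal limit (nor did any of the 14024 genes pass after adjustment, SHMT2 included), and in the cell line comparison, without the treatment term, 2 members were lower in SW620. Members lower at the adjusted limit numbered 2 with no filter, 2 with DESeq2's size factors and 0 with a filter of 50 counts, with the DESeq2 Wald test or with thinning. Over all genes, in the same order, 137 of 20349, 145 of 14024, 54 of 11473, 21 of 14024 and 13 of 13510 were lower. Other mitotic genes lower at that limit numbered 0 with a filter of 50 counts, DESeq2 or thinning, and 1 was higher at the nominal limit with a filter of 50 counts or with DESeq2's size factors. DESeq2, whose missing adjusted p values were kept as missing, gave 14 members and 7 other mitotic genes as lower at the nominal limit. Over all 14024 genes, 178 were lower at that limit with DESeq2. It also gave 18 members as higher and 2 as lower in SW620 at the adjusted limit. Thinning gave 3 members as lower in SW620 at this limit. The main fit called 32.3% of the 14024 genes as higher in SW620 and 31.3% as lower. Such background shares are not given for the other fits. Their counts of members by line therefore cannot be compared with a background. The median line difference was 0.27 with no filter, 0.28 with DESeq2's size factors, 0.28 with DESeq2 and 0.29 with thinning. Without replicate 1 and without replicate 2, SKA1 was at -0.50 and 0.36 and SKA2 at -0.27 and 0.11. The cause of these differences was not tested.

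With 1 library per line and condition, leaving out a line leaves no test. Few counts limit SKA1, with 77 in control SW620 cells, and SPC24, with 50 in knockdown SW480 cells. They also limit CENPK, CENPH, CENPA and CENPI, with 47, 50, 69 and 76 counts in knockdown SW480 cells.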
